A study of Homo sapiens with 8 samples.

Results

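ALG13 and 9 other enzymes that build the N-glycan precursor were measured in an esophageal cancer cell line with and without siRNA against KHSRP. The 10 genes (ALG13, ALG14, DPAGT1, ALG1, ALG2, ALG3, ALG5, ALG6, ALG8 and ALG9) were taken from 12125 genes with a tested level, and every array probe whose RefSeq accession maps to one of these symbols was used. They were read by 15 probes, 1 probe for each of 7 genes and several for ALG13, ALG1 and ALG2. All 15 probes were tested, and 14 of them were well above background on all 8 arrays. The set was chosen by the measured group differences of the ALG13 probes, designed to different transcripts, which moved in opposite directions after KHSRP siRNA, so the ALG13 differences are given as a description with no test.

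KYSE850 is an established human esophageal squamous cell carcinoma line, and its total RNA was hybridised to one-colour Agilent arrays. The groups were 4 arrays of cells given control siRNA and 4 of cells given KHSRP siRNA, and KHSRP acts in splicing, mRNA decay and microRNA maturation by binding RNA; no other treatment separates them. The study used more than 1 KHSRP siRNA, and neither the labels nor the methods tie a given siRNA to an array or say that the samples were separate cultures, so p-values measure only the spread between these samples. Replicates 1 and 2 of both groups lay on slide 1 and replicates 3 and 4 on slide 2.

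An N-glycan is assembled on the lipid dolichol phosphate in the membrane of the endoplasmic reticulum, sugar by sugar, before it is moved as a whole onto a protein. DPAGT1 places the initial N-acetylglucosamine phosphate, and ALG13 with its membrane anchor ALG14 adds the next N-acetylglucosamine. ALG1 and ALG2 then add mannoses on the cytosolic side, ALG3 and ALG9 add mannoses in the lumen, and ALG6 and ALG8 add glucoses from dolichol phosphate glucose, which ALG5 makes. ALG13 is known to be spliced into several forms, a short one with the glycosyltransferase part and longer ones with added domains.

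The RefSeq annotation of GRCh38.p14 lists 20 curated and 28 predicted ALG13 transcripts on chromosome X, which shows how many forms a single probe may or may not read. Of the other enzymes with several probes, ALG2 on chromosome 9 has 2 curated transcripts, of which 1 is coding. ALG13 has 2 transcription starts in the promoter table used here, 487 bases apart, so transcripts of the gene can begin from different windows. Each window covers 250 bases before the start and 50 from it on, and is shown because the probes of ALG13 and of ALG2 parted from each other. The RefSeq windows are chrX:111680920-111681219 (plus strand) and chrX:111681407-111681706 (plus strand) for ALG13 and chr9:99221893-99222192 (minus strand) for ALG2, printed 5′ to 3′ on the gene's strand. Capitals mark CCAAT and GGGCGG, the core letters of the CCAAT box and the GC box, on either strand.
ALG13, upstream start: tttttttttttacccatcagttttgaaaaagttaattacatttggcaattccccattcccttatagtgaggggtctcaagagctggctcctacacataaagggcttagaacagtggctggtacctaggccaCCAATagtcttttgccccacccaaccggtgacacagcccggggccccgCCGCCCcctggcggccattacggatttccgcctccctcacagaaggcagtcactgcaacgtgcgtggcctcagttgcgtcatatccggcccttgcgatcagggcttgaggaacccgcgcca
ALG13, downstream start: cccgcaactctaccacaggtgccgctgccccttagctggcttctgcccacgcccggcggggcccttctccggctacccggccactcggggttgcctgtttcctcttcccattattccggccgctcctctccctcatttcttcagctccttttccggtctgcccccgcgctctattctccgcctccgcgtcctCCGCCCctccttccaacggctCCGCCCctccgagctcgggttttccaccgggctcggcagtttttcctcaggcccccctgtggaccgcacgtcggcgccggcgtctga
ALG2: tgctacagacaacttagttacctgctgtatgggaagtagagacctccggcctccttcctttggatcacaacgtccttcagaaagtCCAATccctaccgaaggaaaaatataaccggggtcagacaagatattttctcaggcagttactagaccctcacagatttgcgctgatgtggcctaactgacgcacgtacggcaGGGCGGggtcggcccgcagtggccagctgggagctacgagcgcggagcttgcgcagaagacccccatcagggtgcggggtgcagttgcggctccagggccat
The letters CCAAT began 119 bases before the upstream ALG13 start and were not in the downstream window. GGGCGG was found 71 bases before the upstream start, and 58 and 37 bases before the downstream start. In the ALG2 window CCAAT lay 165 and GGGCGG 52 bases before the start. Of 35116 windows of this length, 34.6% hold CCAAT, 45.0% hold GGGCGG and 11.53% hold TATAAA, which none of these 3 windows has. CCAAT and GGGCGG do not overlap in these windows, and a match describes letters only. No probe sequence was used, so which exon or start a probe reads was not determined.

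Each level below is the log2 of the processed signal relative to the 75th percentile of probes on the same array. A level of 0 is the signal at that percentile, and levels of different probes are not compared, since probes differ in how well they bind. The silenced gene was read first: KHSRP (probe A_23_P16157) had a level of 6.08 ± 0.24 with control siRNA and 2.71 ± 0.19 with KHSRP siRNA (SD, n = 4 each). The difference was −3.37 (SE 0.16, limma adjusted p = 5.95e-05; exact permutation p = 0.0286, two-sided, the smallest that 4 against 4 arrays allow), with every KHSRP siRNA array below every control array. All 8 squamous epithelium markers were well above background on all 8 arrays. Of the other marker genes, COL1A1 and CD68 were so on all 8, PTPRC was on 4 and CD3E on 5 arrays, the other 5 fibroblast markers and the 3 of endothelium were on none, and the part of other cell types in the results was not tested. In bulk RNA, fewer cells of a kind and less RNA per cell cannot be told apart.

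The ALG13 probe A_23_P11279, designed to NM_018466, was higher after KHSRP siRNA. Its levels were 1.14, 1.18, 1.31 and 1.47 on control replicates 1 to 4 and 1.83, 2.12, 2.16 and 2.12 on KHSRP siRNA replicates 1 to 4. The lowest KHSRP siRNA array lay above the highest control array, and the groups did not overlap. The means were 1.28 ± 0.15 and 2.06 ± 0.16 (SD, n = 4 each), a difference of 0.78 (SE 0.13) or 1.72-fold.

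The ALG13 probe A_23_P22672, designed to NM_001257231, was lower after KHSRP siRNA. On control replicates 1 to 4 it read 0.99, 0.998, 1.22 and 1.15, and on KHSRP siRNA replicates 1 to 4 it read −0.03, −0.37, −0.21 and −0.31. Here each KHSRP siRNA array lay below each control array. The means were 1.09 ± 0.11 and −0.23 ± 0.15 (SD, n = 4 each), a difference of −1.32 (SE 0.12), so that the signal was at 40.1% of that in control cells. With another background correction (normexp), which here added 50 to each signal, this difference was −0.91, smaller in size and in the same direction. Adding a fixed amount makes log2 differences smaller, most of all for dim probes. How much of each smaller size under normexp came from it was not tested.

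**Figure D1:**
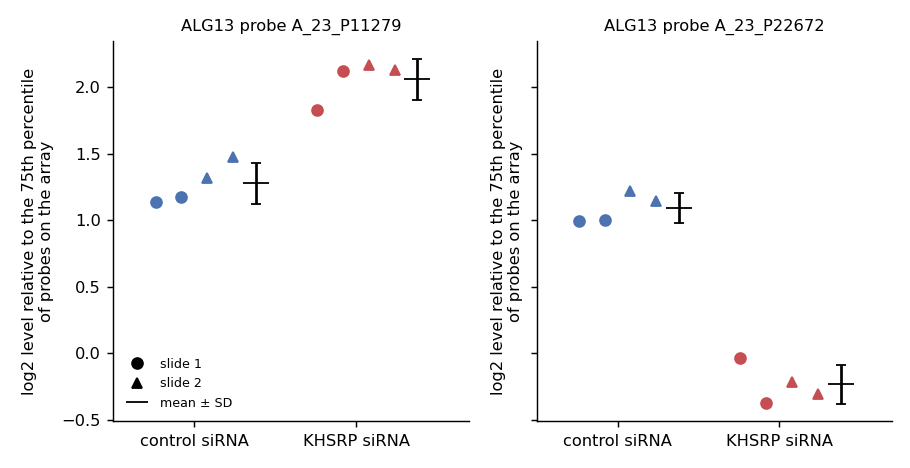
Level of the ALG13 probes on each array (log2, relative to the 75th percentile of probes on the array), with circles for slide 1, triangles for slide 2 and the mean ± SD of 4 arrays beside each group. Probe A_23_P11279 sits between 1.14 and 1.47 in control cells and between 1.83 and 2.16 after KHSRP siRNA, and probe A_23_P22672 falls from between 0.99 and 1.22 to between −0.37 and −0.03.

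Within an array, the gap between the ALG13 probes was wider in every KHSRP siRNA sample than in any control sample. Since probes differ in how well they bind, the gap does not compare the amounts of the transcripts, and only its shift is read. The level of A_23_P11279 minus that of A_23_P22672 was between 0.09 and 0.33 on the control arrays and between 1.86 and 2.48 on the KHSRP siRNA arrays. The mean of this difference moved by 2.10 on the log2 scale, or 4.29-fold, and no scaling between arrays enters it. With normexp it was 1.55, or 2.93-fold. Within slide 1 alone the group differences of the probes were 0.81 and −1.20, and within slide 2 they were 0.75 and −1.44. A single value for ALG13 would therefore rise or fall with the probe that stood for it.

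ALG14, the partner that holds ALG13 at the membrane, was read by a single probe and did not pass the test. Its levels were 1.12, 1.22, 1.15 and 1.13 on the control arrays and 0.91, 1.26, 1.14 and 0.91 on the KHSRP siRNA arrays. KHSRP siRNA replicates 1 and 4 lay below all control arrays, and replicate 2 lay above them. The difference was −0.10 (95% interval −0.37 to 0.17, limma adjusted p = 0.745), so changes between these bounds are not excluded by these arrays.

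Across the other 9 enzymes, 2 of 13 probes were called at an adjusted p under 0.05, both lower after KHSRP siRNA, and none was higher. The same 2 were those with an unadjusted p under 0.05, and the methods' t-test with Benjamini-Hochberg adjustment also called 0 higher and 2 lower. The called probes were a probe of ALG2 and the probe of ALG9. Over all 18761 tested probes 5.54% were called, 1.92% higher and 3.62% lower. The ALG2 probe entered the test through the control arrays alone, and of the 12 probes that were well above background on all 8 arrays 1 was called, that of ALG9 (8.33%, where 5.54% of 17229 such probes were). With each array scaled to its median instead, 17.2% of the calls over all probes were higher, against 34.6% with the 75th percentile. The groups did not overlap for the same 2 probes, and 14.8% of all tested probes had groups that did not overlap. The median difference of the 13 probes was 0.01, as it was over all tested probes (0.01). For the 11 uncalled probes the differences lay within 0.38 of 0 in either direction.

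**Figure D2:**
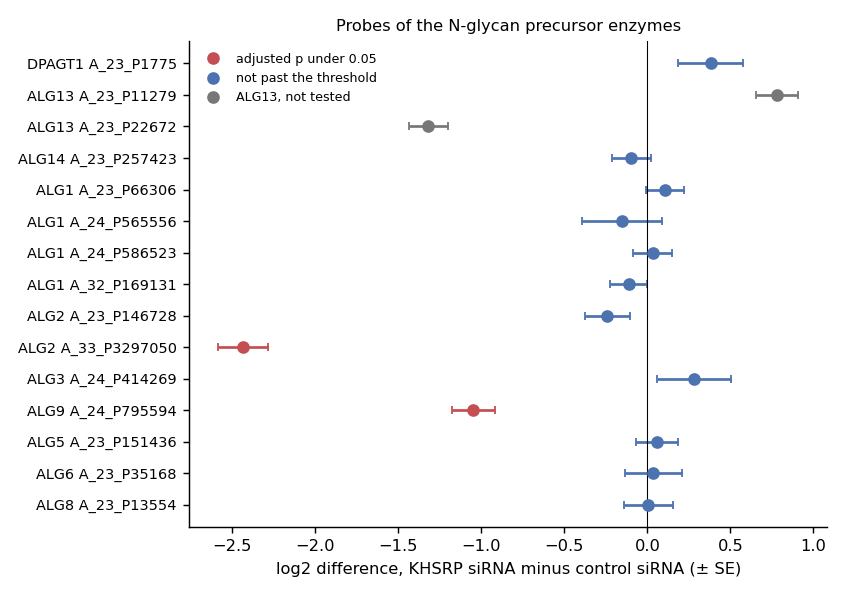
Difference in level between KHSRP siRNA and control siRNA arrays (log2, point, with its SE) for each of the 15 probes, ordered by the step of the enzyme, with n = 4 arrays in each group. ALG2 probe A_33_P3297050 at −2.43 and ALG9 at −1.05 are the called probes, the grey ALG13 probes lie at 0.78 and −1.32 and carry no test, and the remaining probes lie within 0.38 of 0.

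DPAGT1, the enzyme of the initial step and the target of tunicamycin, had the largest difference among the uncalled probes. Its levels were 1.02, 0.70, 1.0 and 0.46 on the control arrays and 1.31, 1.17, 0.75 and 1.47 on the KHSRP siRNA arrays. Control replicate 4 and KHSRP siRNA replicate 3 were the lowest of their groups, and the groups overlapped. The difference was 0.38 (95% interval −0.06 to 0.82, limma adjusted p = 0.336). With a replicate block by the numbers of the series matrix, in which KHSRP siRNA arrays 3 and 4 change places, DPAGT1 was called higher (adjusted p = 0.0131), in a fit that called 30.1% of all tested probes.

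ALG1, which adds the initial mannose, had 4 probes to NM_019109, and none was called. Their differences were 0.11 (A_23_P66306), −0.15 (A_24_P565556), 0.03 (A_24_P586523) and −0.11 (A_32_P169131), with limma adjusted p between 0.672 and 0.935. The 95% intervals of these differences together ran from −0.70 to 0.40. ALG1 has near-identical copies elsewhere in the genome, and which copy a probe reads is uncertain.

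ALG2, which adds the mannoses that follow, was read by 2 probes to the same accession, NM_033087, and they parted. Probe A_33_P3297050 read −0.48, −0.46, −0.53 and −0.52 on the control arrays and −2.56, −3.12, −2.86 and −3.18 on the KHSRP siRNA arrays. The control arrays lay close together, and every KHSRP siRNA array lay far below them. The probe was well above background on every control array but, after KHSRP siRNA, on only 2 of 4, replicates 1 and 2, so it entered the test through its bright control group. The measured difference was −2.43 (SE 0.15, 95% interval −2.77 to −2.09, limma adjusted p = 2.39e-04), and its size rests on signals near background. With normexp the difference was −0.80, or 1.75-fold in place of 5.40-fold, and still called. Within slides 1 and 2 it was −2.37 and −2.50.

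The other ALG2 probe, A_23_P146728, read 1.34, 1.17, 1.45 and 1.08 on the control arrays and 1.11, 1.14, 0.75 and 1.08 on the KHSRP siRNA arrays. These groups overlapped. The difference of −0.24 (95% interval −0.55 to 0.07, limma adjusted p = 0.400) did not pass the test, and its interval lies apart from that of A_33_P3297050. Within an array the level of A_23_P146728 minus that of A_33_P3297050 was 1.60 to 1.98 with control siRNA and 3.61 to 4.26 with KHSRP siRNA, a shift of 2.19. With normexp the differences of the ALG2 probes were −0.16 and −0.80 and the shift was 0.64, or 1.56-fold in place of 4.57-fold.

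ALG9, a mannosyltransferase of the lumen, had a probe to NM_001077691 that fell. It read −1.18, −1.04, −0.83 and −1.05 on the control arrays and −2.03, −2.25, −1.87 and −2.15 on the KHSRP siRNA arrays. Each KHSRP siRNA array lay below each control array, and the probe was well above background on all 8. The fall was −1.05 (SE 0.13, 95% interval −1.34 to −0.75, limma adjusted p = 0.00373), to 48.4% of the signal in control cells. With normexp and its added 50 it was −0.37, or 1.30-fold in place of 2.07-fold, and still called. Within slides 1 and 2 it was −1.03 and −1.06. ALG9 has 24 curated transcripts and 3 starts in RefSeq, and a single probe stood for them all.

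**Figure D3:**
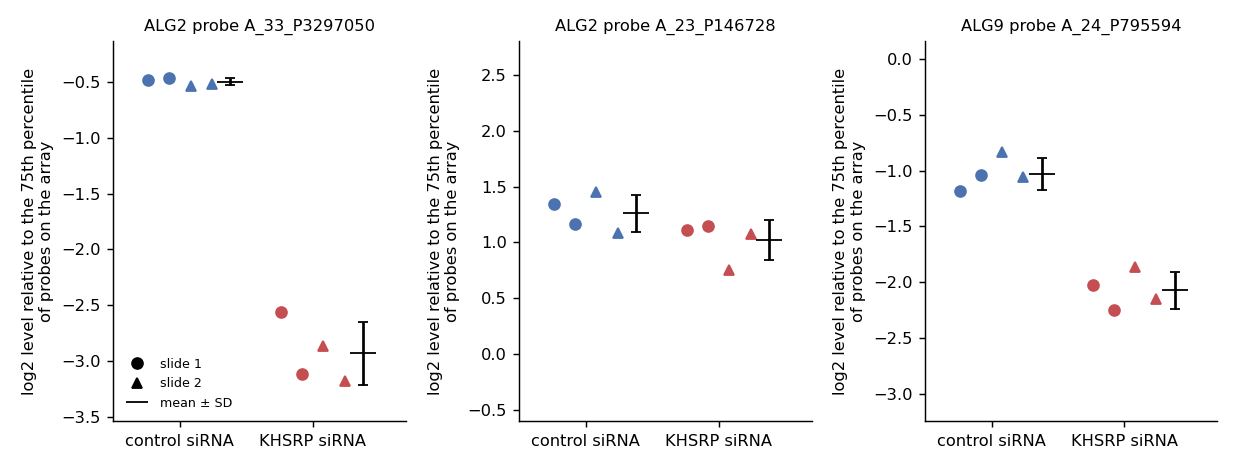
Level on each array (log2, relative to the 75th percentile of probes on the array) of both ALG2 probes and the ALG9 probe, with axes of equal span, circles for slide 1, triangles for slide 2, and the mean ± SD of 4 arrays. ALG2 probe A_33_P3297050 drops from about −0.50 to between −3.18 and −2.56 while ALG2 probe A_23_P146728 overlaps between the groups, and ALG9 drops from between −1.18 and −0.83 to between −2.25 and −1.87.

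ALG3, the mannosyltransferase of the lumen that acts before ALG9, read 5.11, 4.71, 5.32 and 4.48 on the control arrays and 5.17, 5.17, 4.82 and 5.58 on the KHSRP siRNA arrays. The arrays overlapped, and the difference was 0.28 (95% interval −0.23 to 0.79, limma adjusted p = 0.580). ALG5, the dolichol phosphate glucose synthase, differed by 0.06 (95% interval −0.23 to 0.35). The glucosyltransferases ALG6 and ALG8 differed by 0.04 (95% interval −0.35 to 0.42) and 0.01 (95% interval −0.33 to 0.34). The limma adjusted p of ALG5, ALG6 and ALG8 lay between 0.877 and 0.990. For DPAGT1, ALG3, ALG8, ALG2 probe A_23_P146728 and ALG1 probe A_24_P586523, that is 5 of the 11 uncalled probes, control replicate 4 and KHSRP siRNA replicate 3 were both the lowest of their groups.

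Parting of the probes of a gene was compared over the whole array. ALG13, whose spread of 2.10 chose the set, was left out of the comparison. Of the 2719 other genes with several tested probes, the median spread between the highest and the lowest difference of a gene's probes was 0.155 on the log2 scale. ALG1, with 4 probes and a spread of 0.26, ranked 890. ALG2, with 2.19, ranked 5, but its spread rests on the probe near background, and with normexp it was 0.64 and ranked 76, where the median was 0.115. Of these 2719 genes, 1 had a probe called higher and another called lower: HS2ST1, a heparan sulfate sulfotransferase, at −2.01 (A_24_P242361, limma adjusted p = 0.00928) and 0.76 (A_33_P3269069, limma adjusted p = 0.0196), named after its values were seen. Its lower probe was dim, at −1.37 ± 0.47 with control siRNA and −3.38 ± 0.53 with KHSRP siRNA (SD, n = 4 each). The size of that fall may therefore rest on signals near background, and its value with normexp is not given here. A called probe beside an uncalled probe of the same gene, as in ALG2, was found in 236 of the 296 genes that had a called probe.

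**Figure D4:**
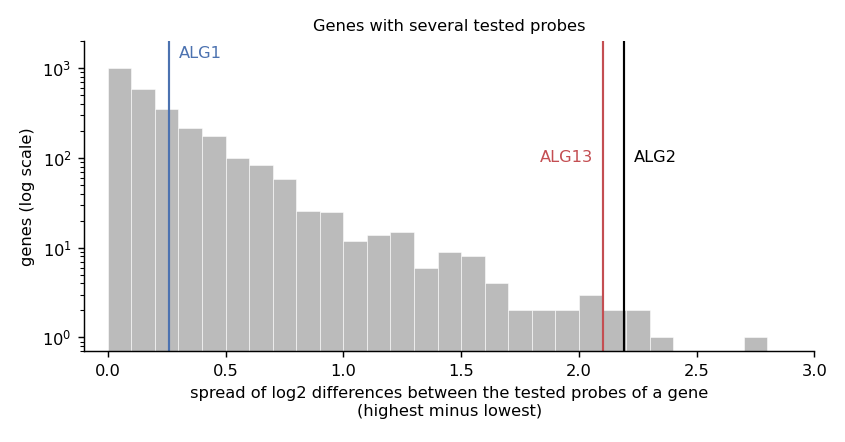
Number of genes (log scale) by the spread of the log2 differences between their tested probes, for 2720 genes with several such probes, ALG13 included. Lines mark ALG1 at 0.26 and ALG2 at 2.19, where the median gene had 0.155, and with normexp the ALG2 spread was 0.64. The line of ALG13 at 2.10 only shows its place, since that spread chose the set, and it is not compared with the other genes.

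The remaining genes of the pathway were read from lists of 49 genes, each by its brightest tested probe, and 2 were called (4.08%), 1 higher and 1 lower, where 6.19% of all genes were called. Their median difference was −0.09, and 17 of the 49 were above 0. At an unadjusted p under 0.05 there were 5 genes, 2 of them in sugar nucleotide supply and 3 in trimming and folding check, with none in the other lists. With the replicate block by series matrix numbers 8 were called, 3 higher and 5 lower (16.3%, where 33% of all genes were). No call was made among the 6 other enzymes of precursor assembly, whose median was −0.18. ALG11, which adds further cytosolic mannoses, differed by −0.31 (limma adjusted p = 0.622) and ALG10, which adds the last glucose, by −0.26 (limma adjusted p = 0.414), a probe that the near-identical ALG10B may share.

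The 8 genes of dolichol phosphate synthesis had a median of 0.00 and no call. Those farthest from 0 were NUS1, a subunit of the enzyme that makes the dolichol chain, at 0.26 (limma adjusted p = 0.408), and DPM3, which tethers dolichol phosphate mannose synthase, at −0.24 (limma adjusted p = 0.298). Other probes of NUS1 reached −0.34 (A_33_P3317282, limma adjusted p = 0.139, and 0.0364 with the replicate block by series matrix numbers) and the other DPM3 probe 0.13, so their direction depended on the probe. The 12 genes of the oligosaccharyltransferase, which moves the finished glycan onto proteins, had a median of −0.12, 3 of them above 0 and none called. RPN1 differed by −0.29 (limma adjusted p = 0.290) and the catalytic subunit STT3B by −0.29 (limma adjusted p = 0.530), which was called lower with the replicate block by series matrix numbers (adjusted p = 0.0363).

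Both called genes lay among the 12 of sugar nucleotide supply. UAP1L1, a relative of the enzyme that makes UDP-N-acetylglucosamine, read −1.54, −1.48, −1.65 and −1.22 on the control arrays and −0.10, −0.04, −0.29 and 0.11 on the KHSRP siRNA arrays. The groups lay apart, and the rise was 1.39 (SE 0.14, limma adjusted p = 0.00145), or 2.63-fold, with 0.68 or 1.61-fold under normexp. UAP1, the enzyme itself, differed by −0.06 (limma adjusted p = 0.915). PMM1, a phosphomannomutase, read 2.03, 1.97, 1.89 and 1.90 on the control arrays and 1.56, 1.51, 1.58 and 1.49 on the KHSRP siRNA arrays. It fell by 0.41 on the log2 scale (SE 0.10, limma adjusted p = 0.0446), a call lost when any 1 array was left out (adjusted p 0.0804 to 0.139). UGP2, which makes UDP-glucose, differed by 0.43 (limma adjusted p = 0.736), and by −0.12 without control replicate 2. GMPPB, at −0.27 (limma adjusted p = 0.358), was called lower with the replicate block by series matrix numbers (adjusted p = 0.0496). GFPT1, the rate-limiting enzyme of UDP-N-acetylglucosamine synthesis, differed by −0.02 on its brightest probe, while its other probe, A_23_P345887, was called lower at −1.34 (limma adjusted p = 0.00727); it too was named after its values were seen.

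The 11 genes that trim the transferred glycan and check folding had a median of −0.01 and no call. MOGS, the glucosidase that removes the outermost glucose, was at 4.48 ± 0.18 with control siRNA and 4.91 ± 0.17 with KHSRP siRNA (SD, n = 4 each). Its groups did not overlap, but the difference of 0.43 did not pass (limma adjusted p = 0.119), and it did with the replicate block by series matrix numbers (adjusted p = 0.0130). EDEM1, which directs misfolded glycoproteins to degradation, differed by 0.43 with groups that overlapped widely (limma adjusted p = 0.729, and 0.0122 with that block). The same block called CANX lower, at −0.34 (limma adjusted p = 0.203, and 0.0365 with the block). It also called UGGT1 lower, at −0.30 (limma adjusted p = 0.227, and 0.0438 with the block).

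**Figure D5:**
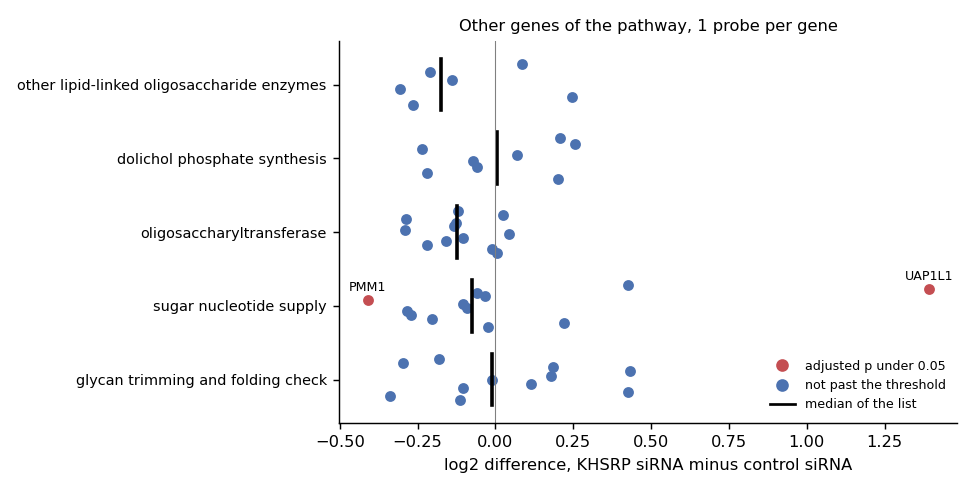
Difference in level between KHSRP siRNA and control siRNA arrays (log2, n = 4 each) for 49 other genes of the pathway, 1 point per gene at its brightest tested probe, by list, with a bar at each list's median. UAP1L1 at 1.39 and PMM1 at −0.41 are the called genes, and the list medians lie between −0.18 and 0.00.

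The genes whose levels ran most like those of the parted probes were named by the root mean square difference of their centred levels over the 8 arrays, among 14464 candidate probes for ALG13 and 14465 for ALG2. For ALG13 probe A_23_P11279 they were STK3 (0.0626), EXTL3 (0.0902) and WDR81 (0.0954), each higher after KHSRP siRNA. For ALG13 probe A_23_P22672 they were SCAF11 (0.108), KPNA4 (0.116) and TRAPPC1 (0.121), each lower. For ALG2 probe A_33_P3297050 they were ITGB1 (0.196), C19orf12 (0.235) and MTHFS (0.250), also lower. A probe picked for such likeness moves in the same direction by that choice, so the directions are no result. The distances are smaller for the higher ALG13 probe, and they say nothing of shared control.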

How the data were processed

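Total RNA of KYSE850 cells was measured on 8 one-colour Agilent arrays, grouped by their labels. The authors extracted the scans with Agilent Feature Extraction (11.5.1.1 in the file headers, 12.6 in the submitters' processing notes), and the deposited scanner values are linear fluorescence intensity, background-subtracted and detrended but not scaled between arrays. The flags for outlying spots and for signal well above background were also taken from the deposited files. The authors' series matrix of log2 values, from GeneSpring, was used as an alternative. In it the columns of KHSRP siRNA 3 and 4 stand in exchanged order against the scanner files (r = 1.00, against −0.432 with their own number), and the scanner numbers are used here.

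Control and outlier spots were left out (265 to 346 outlier spots an array), and the mean log2 value of each probe's spots was taken minus the 75th percentile over 42405 non-control probes, whose signal was 87.7 to 117. Tests were limited to probes with a share of 0.5 or more of their spots well above background on all 4 arrays of a group. Between 45.1% and 49.4% of probes were well above background, and the number of arrays limits the precision. Symbols came from RefSeq accessions in GRCh38.p14 (27241 probes, 64.2%), and the array design names hg19.

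The test was that of limma 3.58.1, run in R 4.3.3 (lmFit, eBayes, no block, Benjamini-Hochberg over 18761 probes, two-sided), and called means an adjusted p under 0.05. It was also run on simulated data, drawn independently for each array. Such draws lack the shared deviations given below, so that run does not bear on them. Other steps used Python 3.11.15. Deviations from group means correlated within scanner numbers at 0.52, 0.43, −0.67 and −0.64. Within series matrix numbers they correlated at 0.52, 0.43, 0.83 and 0.84. Samples of the same series matrix number thus deviated alike, but the labels state no pairing, and the main tests use no block. A value with the replicate block by series matrix numbers is given where it changes the call of an enzyme probe or of a list gene's brightest probe.

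The genes, lists and tests were chosen with earlier results of these data known. Named genes are KHSRP, every probe of the 10 enzymes, and in each list the called genes and the 2 with the largest difference. GMPPB, CANX and UGGT1 are named as well, since the replicate block by series matrix numbers changed their calls. Scaling, background correction, filters, blocks, array weights and leaving out each array were tried as alternatives. Normexp was run with an offset of 50, added to each corrected signal.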

Additional observations from a re-analysis of the deposited data

Results flagged for a closer look

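A sample lay far from the other 3 of its group for 5 of 56 groups of values tested with Dixon's ratio, a gap over the range that chance takes past its 95% limit in about 1 of 20 groups. ALG13 probe A_23_P11279 was low on KHSRP siRNA replicate 1, at 1.83 where the next was 2.12 (ratio 0.862), which is still above all control arrays. ALG2 probe A_23_P146728 was low on KHSRP siRNA replicate 3, at 0.75 beside 1.08 (ratio 0.832). ALG10 was low on control replicate 4, at −2.08 beside −1.80 (ratio 0.987). UGP2 was low on control replicate 2, at −0.45 beside 1.61 (ratio 0.841), and its difference turned from 0.43 to −0.12 without that array. The dim KHSRP probe A_24_P134235 was low on control replicate 2, at −1.86 beside −1.10 (ratio 0.832), and was not well above background on any KHSRP siRNA array.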

How the results depend on the processing

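Both ALG13 probes kept their direction under every alternative that was run. All of these reuse the 8 arrays that chose the set, so this describes the processing and is no separate support. The lower ALG13 probe, A_23_P22672, moved to −0.91 with normexp. ALG2 probe A_33_P3297050 and ALG9 were called under every alternative that tested them, with adjusted p of at most 0.0303 and 0.0434, and the ALG2 probe was not tested where all 8 arrays had to be well above background. The enzyme probes called lower were then 1 in place of 2. With the replicate block by series matrix numbers, 1 enzyme probe was called higher in place of 0, and pathway genes called were 3 higher and 5 lower in place of 1 and 1. Pathway genes called lower were 0 with median scaling, the 75th percentile of detected probes, normexp, no filter on dim probes, the replicate block by scanner numbers, and without any 1 array (0 to 0), and 2 with the probe of smallest p standing for a gene.

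Directions of differences near 0 turned. With median scaling ALG1 probe A_24_P586523 was at −0.043, ALG5 at −0.014, ALG6 at −0.037 and ALG8 at −0.067. ALG8 was at −0.059 with normexp, −0.027 within slide 1 and −0.0020 with array weights, ALG10 at 0.0099 with normexp and UGP2 at −0.14 within slide 2. Leaving out 1 array gave −0.30 to 0.034 for ALG1 probe A_24_P565556, −0.031 to 0.078 for A_24_P586523, −0.072 to 0.14 for ALG6, −0.079 to 0.081 for ALG8 and −0.12 to 0.69 for UGP2. Over all probes 1039 were called, 570 with median scaling, 319 with no filter on dim probes, 156 with the replicate block by scanner numbers (19.2% higher), 5644 with that by series matrix numbers (49.3% higher), and 489 to 766 without 1 array. The cause of these moves was not tested. The called ALG2 probe was near background after KHSRP siRNA. The sizes of the ALG2 and ALG9 falls depended on the background correction, at −0.80 and −0.37 with normexp.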
